A study of Homo sapiens with 18 samples.

Results

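The genes described here are 8 that encode proteins of the myelin sheath: PMP2, PMP22, MOBP, MBP, CNP, MAG, GJB1 and GJC3. They were chosen by name, as peripheral and central myelin genes, from the 58721 genes of the deposited count table. Counts of 6 of the 8 were high enough to be tested, among 21060 genes tested in all. PMP2 and MOBP reached that level only through libraries with SOX10 overexpression, and MBP and MAG did not reach it in any group.

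Myelin is the stack of cell membrane that Schwann cells wrap around axons in peripheral nerve and that oligodendrocytes wrap around axons in the brain and spinal cord. A small set of proteins holds its layers together, and gap junction proteins link the layers. The neural crest transcription factor SOX10 is required in both of these cell types and is also present in melanocytes, which share the neural crest origin of Schwann cells. In Schwann cells SOX10 acts with EGR2, another transcription factor, on several myelin genes, PMP22 and GJB1 among them.

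RNA was sequenced from A375, an established human melanoma line. The 6 groups had 3 libraries each. In the control group the guide RNA was directed at GFP, which the line does not contain, and a further control group overexpressed SOX10. TADA2B, a subunit of the SAGA chromatin complex, was knocked out with guide 1 or guide 2, and each knockout was profiled without and with SOX10 overexpression. All groups share the A375 background, and the sources used here do not say whether a knockout line was 1 clone or a pool, or how SOX10 was introduced. Replicates are numbered in the labels, which do not say that they were separate cultures, so p-values measure only the spread between these libraries, which may be technical.

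Total counts were between 58573910 and 79874237 per library. TADA2B itself was present in every library, at 32.2 to 32.8 CPM in control cells (CPM, counts scaled by the effective size of each library), 25.6 to 26.4 with guide 1 and 27.5 to 30.2 with guide 2. Read counts do not show edited bases, so this RNA level is no measure of the protein. SOX10 averaged 354 ± 12.2 CPM (SD, n = 3) in control cells and 452 ± 1.57 (SD, n = 3) in control cells with SOX10. It was 83.6 ± 3.02 with guide 1 and 43.4 ± 3.16 with guide 2, and 291 ± 13.9 and 246 ± 5.44 in the same lines with SOX10 (SD, n = 3 each). The counts do not separate the cells' own SOX10 transcripts from introduced ones. Library 2 of guide 2 stood apart from the others of its group, with a chi-square per degree of freedom over genes of 11.9 and 10.4 against them, while those had 4.67 between each other. Mitochondrial transcripts took 0.732% to 1.03% of counts in the groups with the control guide and 0.986% to 1.46% in the knockout groups. Of the melanocyte lineage markers, SOX10, S100B and MITF were abundant, while TYR, a pigment enzyme, had 3 counts in all control libraries.

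The promoter letters of the members were read first, because SOX10 was the factor added in 3 of the groups. SOX proteins bind short motifs, and the 6 letters ACAAAG and ACAATG were searched on both strands in the 250 bases before each RefSeq start (GRCh38.p14). RefSeq promoters were matched for 7 of the 8 members, with 11 starts between them. PMP2 was the member without one, so its promoter was not read. Of 35116 promoters of that length, 13.72% held ACAAAG at least once and 1.421% at least 2 times. For ACAATG these shares were 9.286% and 0.8742%. The promoter of MOBP held ACAAAG 6 times, written CTTTGT because all 6 lay on the opposite strand, and it was the only 1 of the 35116 with 5 or more. Its bases were 35.6% G or C, the lowest share among the 11 starts. The MOBP matches are shown in capitals in an upstream stretch and in a short piece nearer to the start. For comparison, capitals mark the ACAAAG in the upstream start of PMP22, the ACAATG before GJB1, and a pair of ACAATG, written CATTGT, before the second start of CNP.
MOBP, chr3:39467430-39467522, plus strand: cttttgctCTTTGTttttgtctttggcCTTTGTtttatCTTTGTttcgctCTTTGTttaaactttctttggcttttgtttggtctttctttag
MOBP, chr3:39467534-39467563, plus strand: aaCTTTGTgtggcctttttgtagtCTTTGT
PMP22, chr17:15265358-15265576, minus strand: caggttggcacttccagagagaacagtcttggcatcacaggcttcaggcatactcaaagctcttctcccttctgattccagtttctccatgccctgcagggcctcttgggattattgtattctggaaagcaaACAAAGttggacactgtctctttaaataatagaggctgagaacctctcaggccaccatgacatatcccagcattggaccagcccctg
GJB1, chrX:71214989-71215193, plus strand: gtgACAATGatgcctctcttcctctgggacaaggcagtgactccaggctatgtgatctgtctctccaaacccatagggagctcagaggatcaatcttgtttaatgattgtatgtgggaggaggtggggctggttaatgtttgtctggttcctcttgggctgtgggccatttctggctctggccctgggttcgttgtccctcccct
CNP, chr17:41967547-41967782, plus strand: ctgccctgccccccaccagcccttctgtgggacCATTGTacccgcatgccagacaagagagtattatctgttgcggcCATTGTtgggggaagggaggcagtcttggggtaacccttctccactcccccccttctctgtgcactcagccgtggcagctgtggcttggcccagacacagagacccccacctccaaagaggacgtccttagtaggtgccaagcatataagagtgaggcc
GJC3 had neither motif in its window, MBP had ACAATG 2 times before its second start, and MAG had ACAAAG 1 time. The whole MOBP window lies inside the annotated range of the gene, and 157 of its bases, with 2 of the 6 matches in the shorter piece, are annotated as UTR of another MOBP transcript. A match of letters is a description of the sequence and does not show that SOX10 was bound.

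Across the 6 groups the members fell into 3 patterns. PMP2 and MOBP were at or near 0 without SOX10 overexpression and at 5.55 CPM or more in each library with it. PMP22, CNP and GJB1 were expressed in control cells, lower in both knockouts and higher with SOX10. MBP, GJC3 and MAG stayed at a few counts per library everywhere.

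**Figure D1:**
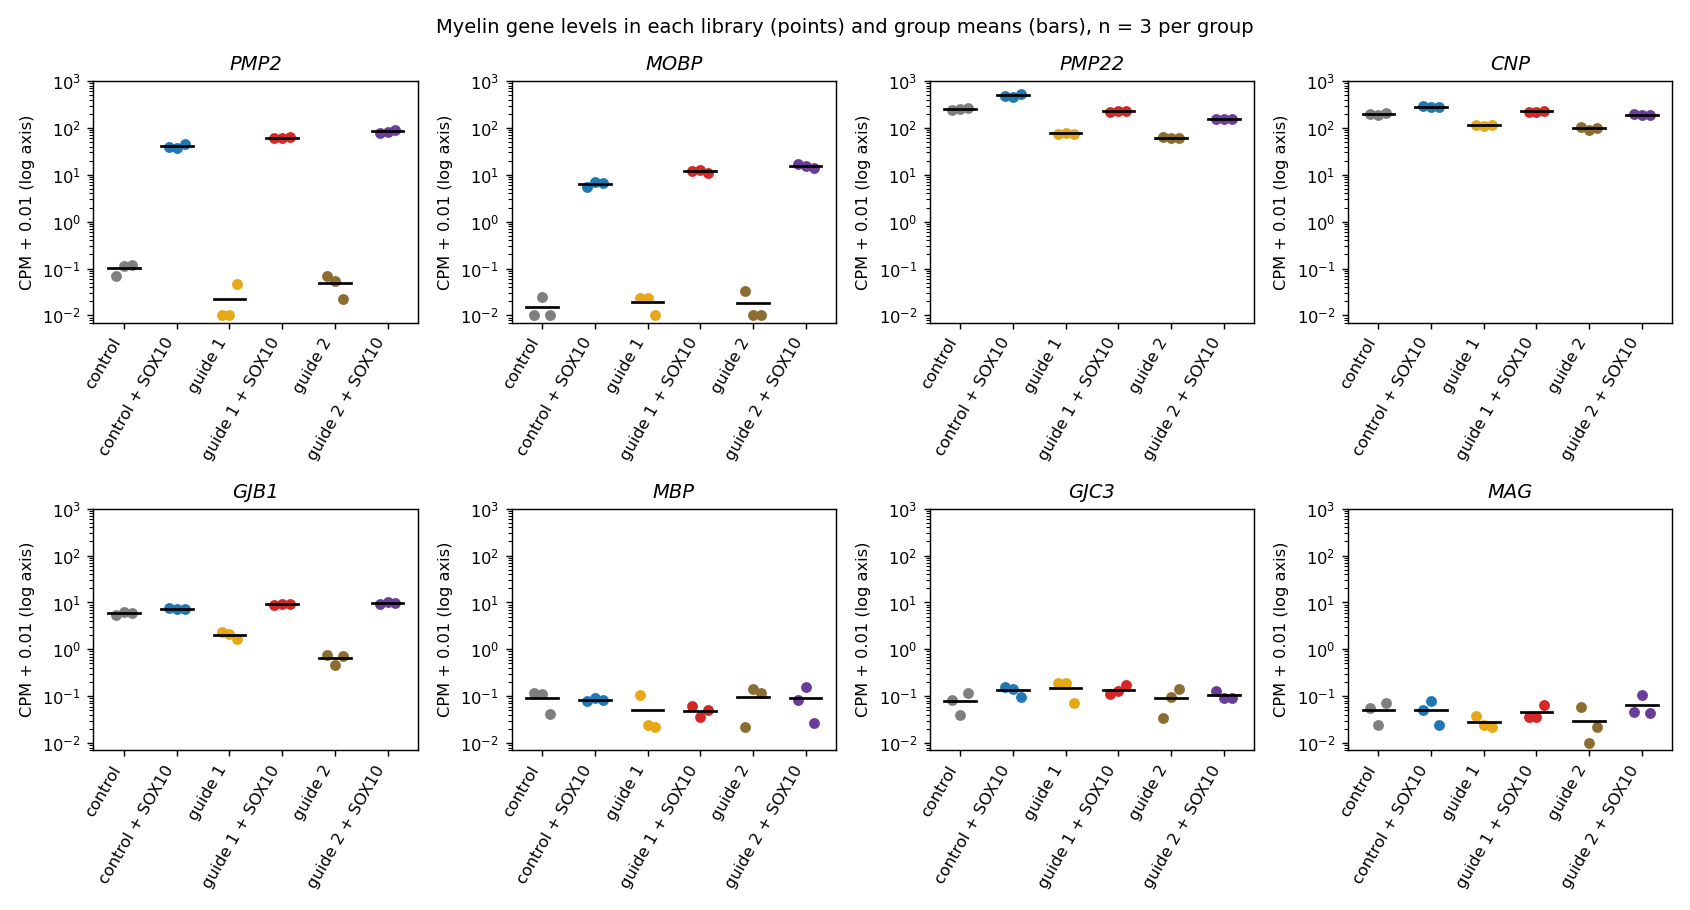
Each panel shows 1 gene, with CPM plus 0.01 on a log axis, 1 point per library and a bar at the mean of the 3 libraries of a group. PMP2 and MOBP sit under 0.2 CPM in the 9 libraries without SOX10 overexpression and above 5 CPM in the 9 with it, while MBP, GJC3 and MAG stay under 0.2 CPM in all 18.

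PMP2 encodes a small fatty acid binding protein of compact peripheral myelin, where it lies between the stacked membranes. Its raw counts were 4, 7 and 7 in the control libraries, 0, 0 and 3 with guide 1, and 5, 3 and 1 with guide 2. With SOX10 they were 2842, 2813 and 3033 in control cells, 4622, 4683 and 4788 with guide 1, and 6446, 5934 and 5593 with guide 2. Every library with SOX10 overexpression was above every library without it, and the 3 SOX10 groups did not overlap in CPM. Their means were 40.4 ± 3.69, 61.7 ± 2.48 and 83.9 ± 7.09 CPM for control, guide 1 and guide 2 (SD, n = 3 each). Summed over libraries and scaled by library size, the ratio to the matching group without SOX10 was 446 in control cells (95% exact counting interval 282 to 754), 4605 with guide 1 (1575 to 22333) and 2168 with guide 2 (1142 to 4742). These intervals cover counting error only, and the ratio for guide 1 rests on 3 counts in its lower group.

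MOBP encodes an abundant basic protein of compact central myelin, made by oligodendrocytes. The gene lies at chr3:39467198-39529479 (hg38). Control libraries had 0, 1 and 0 counts, guide 1 libraries 1, 1 and 0, and guide 2 libraries 2, 0 and 0. With SOX10 the counts were 407, 519 and 446 in control cells, 936, 995 and 805 with guide 1, and 1367, 1136 and 856 with guide 2. The groups without SOX10 overlapped one another, and each SOX10 group lay above the one before it without overlap in CPM, at means of 6.36 ± 0.73, 12.0 ± 1.05 and 15.4 ± 1.30 (SD, n = 3 each). The ratio to the matching group without SOX10 was 1269 in control cells (95% exact counting interval 227 to 50163), 1341 with guide 1 (371 to 11079) and 1823 with guide 2 (504 to 15061). Since 1 or 2 counts stand in each lower group, the upper bounds are loose.

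PMP22 encodes a membrane glycoprotein of compact peripheral myelin whose duplication causes the inherited neuropathy Charcot-Marie-Tooth disease type 1A, and it is also made outside the nervous system. It lies at chr17:15229777-15265357. Control libraries had 245, 253 and 261 CPM, guide 1 libraries 75.9, 78.6 and 75.0, and guide 2 libraries 62.7, 60.9 and 61.5. With SOX10 the values were 487, 458 and 541 in control cells, 221, 225 and 231 with guide 1, and 159, 155 and 157 with guide 2. No 2 groups overlapped. Control cells with SOX10 were highest and guide 2 without SOX10 was lowest, and both knockouts with SOX10 stayed under the control cells without it.

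CNP encodes an enzyme of the non-compact membrane of both kinds of myelin, and it is expressed at low levels in many cells. It lies at chr17:41966741-41977731. Control libraries had 197, 192 and 207 CPM, guide 1 libraries 114, 110 and 114, and guide 2 libraries 104, 91.3 and 99.9. With SOX10 they had 287, 275 and 274 CPM in control cells, 219.6, 221 and 231 with guide 1, and 193, 189 and 188 with guide 2. Guide 2 with SOX10 overlapped the control libraries, and no other neighbours in the order of groups overlapped. Of the exon bases of CNP, 5.40% are shared with DNAJC7 on the opposite strand, and the strand setting of the counting is not given in the sources used here. DNAJC7 was at 172 CPM in control cells and had a log2 change of -0.05 in the knockout and -0.06 with SOX10 in control cells.

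GJB1 encodes connexin 32, the gap junction protein that joins the layers of a Schwann cell's myelin, and its mutations cause the X-linked form of Charcot-Marie-Tooth disease. It lies at chrX:71215194-71225516. Control libraries had 5.37, 6.41 and 6.06 CPM, guide 1 libraries 2.28, 2.06 and 1.67, and guide 2 libraries 0.73, 0.46 and 0.698. With SOX10 the values were 7.65, 7.30 and 7.16 CPM in control cells, 8.74, 9.44 and 9.12 with guide 1, and 9.41, 10.0335 and 9.67 with guide 2. Both knockouts with SOX10 were above the control cells with SOX10 and overlapped each other. The remaining groups were separate, with guide 2 lowest.

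The other 3 members gave little signal. MBP, the basic protein that glues the inner faces of the membrane in both kinds of myelin, had 1 to 11 counts in each library. MAG, an adhesion protein of the membrane next to the axon, had 0 to 7 counts. GJC3, a connexin of myelinating glia, had 2 to 13 counts, and its 6 group means ran from 0.0706 to 0.141 CPM with all neighbours in that order overlapping. A count of 3 corresponded to 0.0359 to 0.0493 CPM, depending on the library, so differences among these 3 genes were not detectable at this depth unless large. In a fit with no filter on low counts, neither MBP nor MAG passed in any of the 11 contrasts, with a lowest adjusted p in edgeR's test of 0.505 for MBP and 0.291 for MAG.

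Levels of different genes can be compared only per length, as CPM divided by the exon length in kilobases (RPKM). In control cells the order on this scale was PMP22 at 78.6, CNP at 26.8 and GJB1 at 2.40 RPKM, with the other 5 at 0.0633 or less. With SOX10 in control cells PMP2 stood at 11.2 RPKM, between CNP at 37.6 and GJB1 at 2.97, and MOBP reached 0.689. In guide 2 cells with SOX10, PMP2 at 23.2 ± 1.97 RPKM and CNP at 25.6 ± 0.41 (SD, n = 3 each) stood under PMP22 at 48.7. With the length of the longest transcript PMP2 kept 23.2 RPKM, while CNP had 36.4 and PMP22 84.4, so the gap between PMP2 and CNP depends on the length used.

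Knockout of TADA2B lowered 4 of the 6 tested members and raised none. Changes are given as log2 fold changes with p-values from edgeR's quasi-likelihood F test, adjusted over all 21060 genes, at a threshold of 0.05. The standard error (SE) beside each was derived from that test, as the absolute change divided by the square root of F. It is unreliable where a group is near 0 counts or the change is near 0. Averaged over both guides, GJB1 changed by -2.39 ± 0.10 (adjusted p = 8.36e-24), PMP22 by -1.88 ± 0.03 (2.64e-30), PMP2 by -1.90 ± 0.68 (0.0187) and CNP by -0.92 ± 0.03 (4.69e-26). GJC3 (0.59 ± 0.55, adjusted p = 0.376) and MOBP (0.64 ± 1.26, adjusted p = 0.693) did not pass. Of all genes tested, 58.1% passed in this contrast, with 28.6% higher and 29.5% lower. The median log2 change over all genes was -0.01, and GJB1 ranked 303 from the lowest of 21060. PMP2 has the highest adjusted p of these calls. It rests on 18 counts in 3 control libraries, its log2 change ran from -3.47 to -1.65 over the alternative settings, and its adjusted p rose to 0.0695 without control replicate 2 and to 0.0764 without control replicate 3.

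The guides were set side by side, though both were compared with the same control libraries. Without guide 2 replicate 2, the library that stood apart, no call among the members changed for guide 2 or for the mean of both guides. Guide 1 lowered 4 of the 6 (52.6% of all genes passed, 26.4% as lower) and guide 2 lowered 3 (55.9%, with 28.1% lower). GJB1 was 2.97-fold lower with guide 1 and 9.30-fold lower with guide 2, PMP22 3.31-fold and 4.10-fold, and CNP 1.76-fold and 2.02-fold. PMP2 passed with guide 1 (log2 change -2.61 ± 0.90, adjusted p = 0.0163) but not with guide 2 (-1.20 ± 0.71, adjusted p = 0.158). Without control replicate 3, guide 1 replicate 1 or guide 1 replicate 2, the adjusted p of the guide 1 change rose to 0.0544, 0.0623 and 0.0615 in turn, and the change itself ran from -5.74 to -2.10 over the alternative settings.

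Guide 2 against guide 1 is a direct test of their difference. GJB1 (-1.64 ± 0.15, adjusted p = 1.63e-11), PMP22 (-0.31 ± 0.04, 9.05e-07) and CNP (-0.19 ± 0.04, 0.000113) were lower with guide 2, which makes 3 of 6 where 8.74% of all genes passed and 6.09% were lower. PMP2 had 1.41 ± 1.06 (adjusted p = 0.535). SOX10 RNA was also lower with guide 2 than with guide 1. Without guide 2 replicate 2 the 3 differences were -1.48, -0.30 and -0.14 and passed.

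In control cells, SOX10 overexpression raised 5 of the 6 tested members, where 34.4% of all genes passed in either direction and 17.3% were higher. PMP2 and MOBP were tested only because of their counts in SOX10 groups, so their part in this count and in those for SOX10 in knockout cells was set by the filter. PMP22 rose by 0.97 ± 0.04 on the log2 scale (adjusted p = 5.57e-20), which is 1.96-fold. CNP rose by 0.49 ± 0.03 (6.31e-15) and GJB1 by 0.31 ± 0.09 (0.00838). The call for GJB1 was lost without control replicate 1, at 0.24 with an adjusted p of 0.0776. PMP2 and MOBP also passed (adjusted p = 1.45e-26 and 5.12e-27), with fitted log2 changes of 8.78 ± 0.15 and 9.89 ± 0.31. These changes depend on the small count added to each library before logs are taken. Both SE values are too small: the counting intervals of the ratios, 282 to 754 and 227 to 50163, are far wider. GJC3 did not pass (0.81 ± 0.61, adjusted p = 0.339).

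Set beside the level of SOX10 itself, the responses differed between genes. SOX10 RNA rose by 0.35 on the log2 scale in control cells, from 354 to 452 CPM. Control cells without overexpression held more SOX10 RNA than either knockout with it. PMP2 was 0.0903 CPM in the former and 61.7 and 83.9 CPM in the latter. Own and introduced SOX10 transcripts are counted together, so SOX10 CPM may not compare between groups with and without overexpression. The part of SOX10 level in these differences was not tested. For PMP22 the group order followed that of SOX10 RNA in all 6 groups. For PMP2, MOBP and GJB1 the highest mean was in guide 2 with SOX10, a group with less SOX10 RNA than the control cells had.

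**Figure D2:**
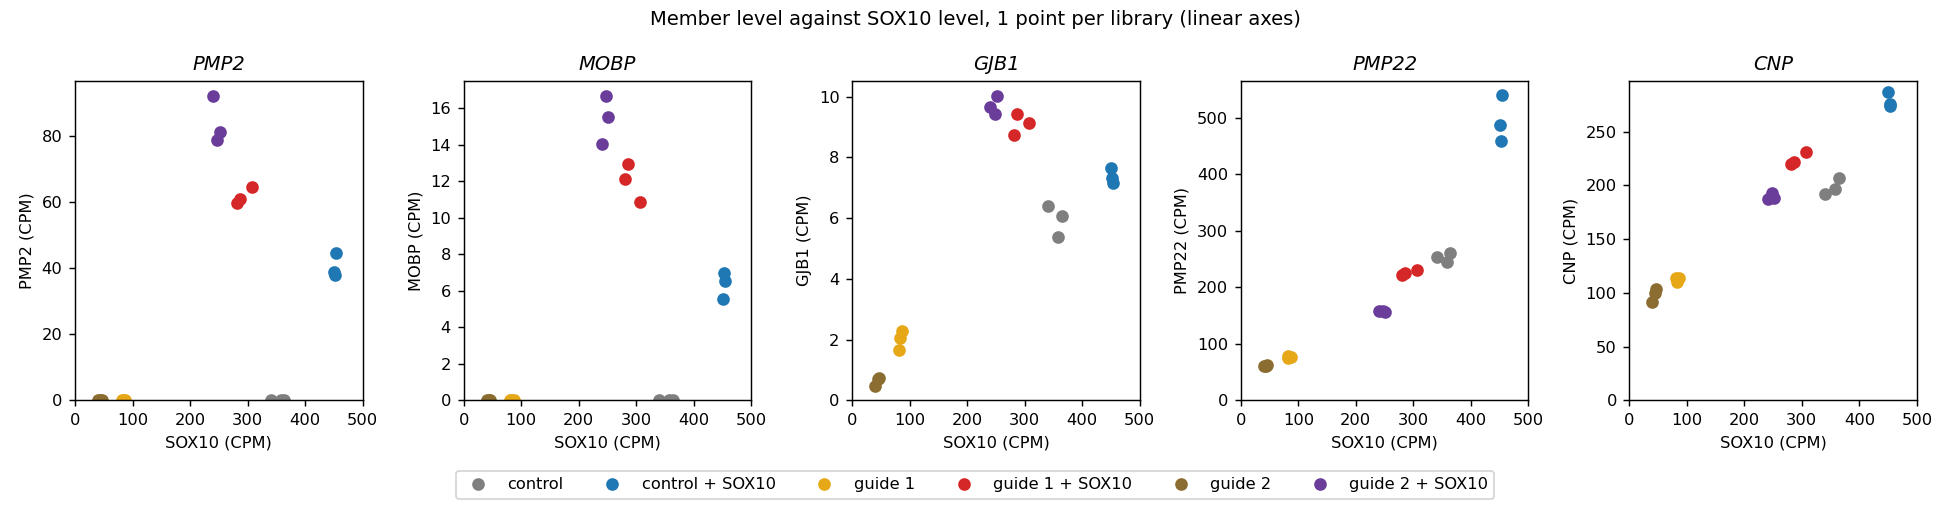
Each panel sets the CPM of 1 gene on the vertical axis against the CPM of SOX10 on the horizontal axis, both linear. There is 1 point per library and a colour per group. SOX10 CPM counts the cells' own and introduced transcripts together. PMP22 climbs with SOX10 RNA through all 6 groups and CNP is highest where SOX10 RNA is highest, while PMP2 and MOBP are near 0 in control cells at 341 to 364 CPM of SOX10 and highest in guide 2 cells with SOX10 at 240.5 to 251 CPM.

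In the knockout cells, SOX10 also raised 5 of 6, where 56.2% of all genes passed, 28.1% as higher and 28.1% as lower. GJB1 rose by 3.06 ± 0.08 on the log2 scale (adjusted p = 2.70e-30), 8.32-fold, and ranked 339 from the highest of 21060. PMP22 rose by 1.45 ± 0.03 (6.09e-29) and CNP by 0.97 ± 0.02 (2.51e-29), which are 2.74-fold and 1.96-fold. PMP2 and MOBP passed as well (adjusted p = 4.11e-33 and 3.52e-37). GJC3 had 0.06 ± 0.40 (adjusted p = 0.921).

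By guide, the count was 5 of 6 with guide 1 (43.7% of all genes passed, 22% as higher) and 5 of 6 with guide 2 (48.6%, with 24.6% higher). GJB1 rose 4.56-fold with guide 1 and 15.2-fold with guide 2, from a lower start in guide 2, to means of 9.10 and 9.70 CPM. PMP22 rose 2.95-fold and 2.54-fold, and CNP 1.99-fold and 1.93-fold.

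Whether the change with SOX10 overexpression differed between knockout and control cells was tested as the difference of both log2 changes, the interaction. SOX10 RNA itself rose by 0.35 in control cells and by 1.80 and 2.50 with guides 1 and 2, and its own interaction was 1.80 ± 0.05 (adjusted p = 7.34e-25 in edgeR's test). A larger rise of SOX10 and a larger response to it therefore cannot be told apart here. The interaction was positive for 4 of 6 members, where 33.3% of all genes passed and 18.1% were positive. GJB1 had 2.74 ± 0.13 (adjusted p = 6.94e-21), PMP2 2.73 ± 0.70 (0.00292), PMP22 0.49 ± 0.05 (4.14e-10) and CNP 0.48 ± 0.04 (5.63e-12). For MOBP the difference was 0.46 ± 2.66 (adjusted p = 0.923) and rests on near-empty libraries. Its SE is unstable, at 8.20 without guide 2 replicate 2 and 1.56 without control replicate 2. GJC3 did not pass (-0.76 ± 0.73, adjusted p = 0.48). PMP2 and MOBP were tested only because of their counts in SOX10 groups. The PMP2 value rests on 12 counts in the 6 knockout libraries without SOX10. It ran from 2.48 to 4.31 over the alternative settings, passing in all of them.

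**Figure D3:**
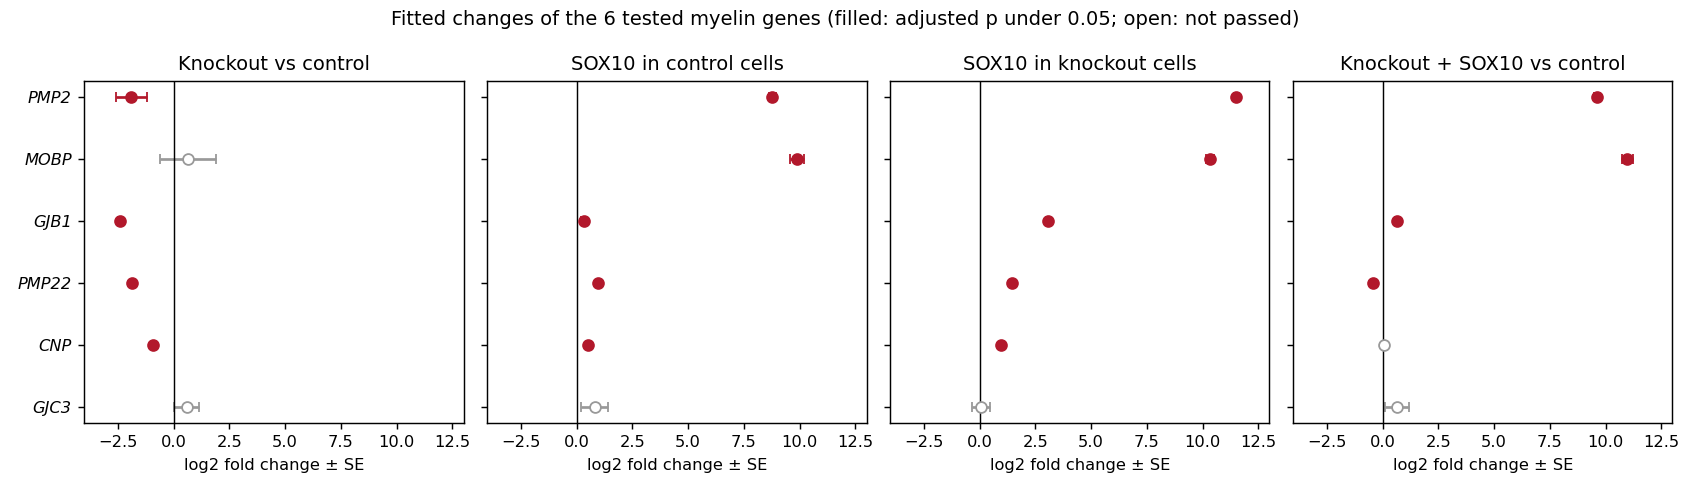
Points give the fitted log2 fold change of the 6 tested genes in 4 contrasts, filled where the adjusted p was under 0.05. Bars give the standard error derived from the F test. With SOX10 in control cells the bars of PMP2 and MOBP are narrower than their counting intervals. PMP2 and MOBP lie beyond 8 with SOX10 in both backgrounds, GJB1 moves from -2.39 in the knockout to 3.06 with SOX10 in knockout cells, and GJC3 is open in all 4 panels.

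Knockout cells with SOX10 were then compared with control cells without it, to see how near each gene came to its starting level. Of the 6, 3 were higher and 1 was lower, and 57.9% of all genes passed, 30% as higher and 27.9% as lower. PMP2 and MOBP entered this count through the SOX10 libraries, without which they would not have been tested. PMP22 remained lower, by a log2 change of -0.43 ± 0.03 (adjusted p = 4.54e-13), while GJB1 was higher by 0.66 ± 0.08 (4.94e-09) and PMP2 and MOBP were far above their control levels. CNP differed by 0.05 ± 0.03 and did not pass (adjusted p = 0.116). That miss depends on the processing: CNP passed as higher with library-size scaling (0.20, adjusted p = 3.77e-07), with no filter (0.07, 0.0449), with a filter at a mean of 1 CPM (0.08, 0.0149) and without control replicate 3 (0.08, 0.0306). Scaling by library size alone shifted the all-gene median upward, by 0.147 on the log2 scale in this contrast, by 0.155 in knockout against control and by 0.00350 for SOX10 in control cells. The directions of the passing members were the same under both scalings.

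The knockout was also compared with control cells among the SOX10-overexpressing groups, a contrast chosen after the values had been seen. Here 5 of 6 members passed, 3 higher and 2 lower, where 55% of all genes did, 28.2% higher and 26.7% lower. MOBP (1.10 ± 0.09, adjusted p = 3.02e-14), PMP2 (0.83 ± 0.05, 1.62e-13) and GJB1 (0.35 ± 0.08, 0.000251) were higher in the knockouts. PMP22 (-1.39 ± 0.03, 6.64e-27) and CNP (-0.44 ± 0.03, 6.30e-16) were lower. PMP2 had 2813 counts or more and MOBP 407 or more in every library of this contrast, so their fold changes of 1.78 and 2.14 do not depend on empty libraries. SOX10 RNA was itself lower in these knockouts, by -0.76 on the log2 scale.

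Other myelin genes, taken from lists by role, were read in the same contrasts. The shares to set beside their counts are the 28.6% of all genes that were higher and the 29.5% that were lower in the knockout, and the 28.1% in each direction with SOX10 in knockout cells. Among 15 tested genes of the central sheath other than the members, 4 were higher and 8 lower in the knockout, and SOX10 in knockout cells raised 12 and lowered 0. Of the 15, 4 were tested only through libraries with SOX10, and these, ERMN, MOG, CMTM5 and HAPLN2, are among the 12. OMG was tested through libraries with and without SOX10, with too few of either kind alone. The list's median log2 change with SOX10 in knockout cells was 1.46, against 0.00 over all genes. GPM6B, a membrane proteolipid, rose from 1.20 to 6.77 CPM with SOX10 in control cells, and PLEKHB1 changed by -2.01 in the knockout and 1.96 with SOX10 in knockout cells on the log2 scale. NFASC, an adhesion protein beside the node, went the other way in the knockout, rising by 1.42. ERMN, MOG, CMTM5 and HAPLN2 were named after their values were seen. Their fitted changes were above 4 with SOX10 in knockout cells, but none exceeded a mean of 0.261 CPM in any group. HAPLN2 had 0 counts in both groups with the control guide.

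The peripheral list was mixed. Of 10 tested genes, 3 were higher and 3 lower in the knockout, and SOX10 in knockout cells raised 5 and lowered 4. In these contrasts 58.1% and 56.2% of all genes passed in either direction. DRP2 was tested only through libraries with SOX10, so its part in the count with SOX10 was set by the filter. CADM4, an adhesion protein of the internode, changed by -2.07 in the knockout and 1.91 with SOX10 in knockout cells, and EPB41L2, a membrane skeleton adaptor, by -0.60 and 0.91. L1CAM, an adhesion protein of non-myelinating Schwann cells, fell by 1.52 on the log2 scale with SOX10 in control cells, and the tetraspanin CD82 rose by 1.79 in the knockout.

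**Figure D4:**
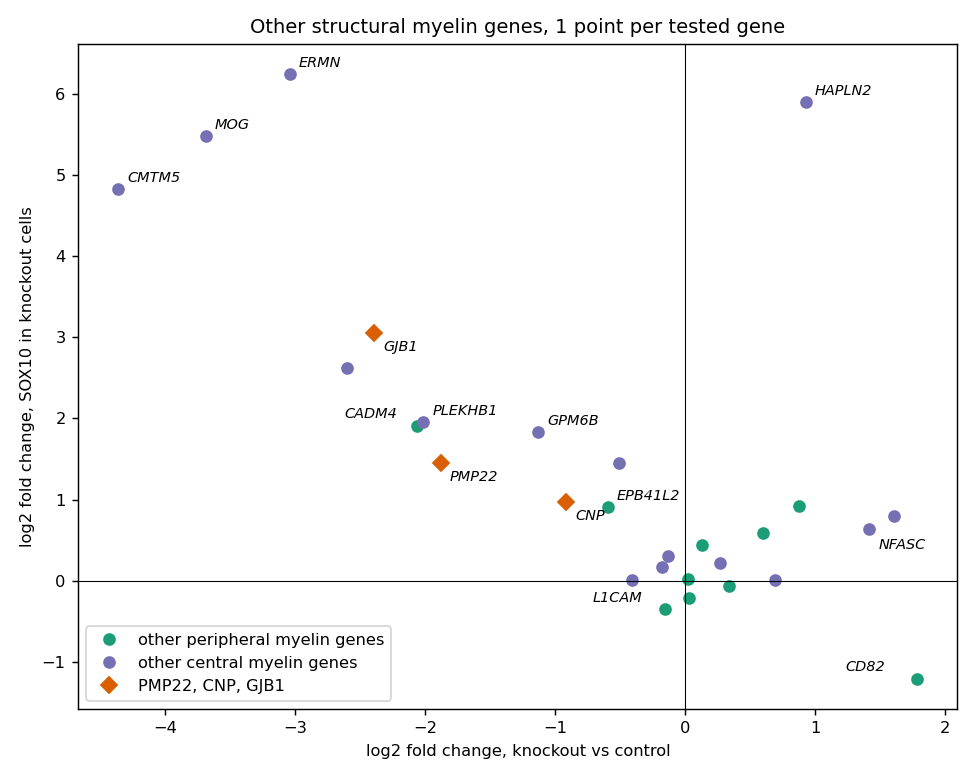
Each point is 1 tested gene, with its log2 fold change in the knockout on the horizontal axis and with SOX10 in knockout cells on the vertical axis. Both axes use the knockout libraries without SOX10, so the position on one is tied to the other. Most of the 15 central genes lie above 0 on the vertical axis, the 10 peripheral genes lie on both sides, and PMP22, CNP and GJB1 sit in the upper left.

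Among regulators of myelination, 9 of 16 tested transcription factors other than SOX10 were lower and 4 higher in the knockout. SOX10 in knockout cells raised 7 of them and lowered 4. OLIG1 was tested only through libraries with SOX10, so its part in that count was set by the filter. POU3F2, a factor of the Schwann cell lineage, changed by -3.17, ZEB2 by -1.59 and NAB2, a cofactor of EGR2, by -1.20 in the knockout. EGR2 itself was low, at 0.591 CPM in control cells. It fell by 0.69 with SOX10 in control cells (adjusted p = 0.04975 in edgeR's test), rose by 1.14 with SOX10 in knockout cells (9.64e-08) and had 0.04 in the knockout (0.899). Of 10 genes known as brakes on myelination, 4 were higher and 6 lower in the knockout, with NOTCH1 at -1.31, HES1 at -1.41 and SOX2 at -1.20, and JUN at 0.71.

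Receptors and signals between axon and glia, a list that also holds the ligand NRG1 and adhesion receptors for laminin, gave 9 lower and 3 higher of 14 tested in the knockout, where 29.5% of all genes were lower. With SOX10 in knockout cells 10 were higher and 3 lower, where 28.1% of all genes were higher. ERBB3, the receptor for axonal neuregulin, averaged 354 CPM in control cells, 30.7 and 13.8 with guides 1 and 2, and 158 and 107 with SOX10 added. CDH19, a cadherin of Schwann cell precursors, rose by 3.82 with SOX10 in knockout cells, and the laminin receptor subunit ITGA6 by 0.62. ADGRG6, a receptor needed for Schwann cells to begin myelinating, rose in the knockout (1.17) and with SOX10 in control cells (1.49).

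Other connexin genes gave a mixed picture. Of 3 tested, 2 were higher and 1 lower in the knockout, and with SOX10 in knockout cells 1 was higher and 2 lower. GJB2 was tested only through libraries without SOX10, so its part in the count with SOX10 was set by the filter. It was at 0.603 CPM or less in every group, and GJC1 changed by -0.27 in the knockout. PANX1, a channel protein of the pannexin family, rose by 0.52.

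PMP2 belongs to the family of fatty acid binding proteins. Of 6 other family members tested, CRABP2 among them, 2 were higher and 3 lower with SOX10 in knockout cells. FABP4 was tested only through libraries without SOX10, so its part in this count was set by the filter. FABP7, the brain form, rose from 2.89 to 29.7 CPM with SOX10 in control cells and from 1.10 and 0.635 to 20.2 and 14.5 CPM in guides 1 and 2. The nearest tested neighbours of PMP2 in the genome are also of this family: FABP5 had a log2 change of -0.01 with SOX10 in control cells (adjusted p = 0.862 in edgeR's test), and FABP4 was at 0.0150 CPM in control cells and 0.00455 with SOX10. Neighbours of MOBP were RPSA, at 1632 CPM in control cells and 1605 with SOX10, and MYRIP, 279435 bases away, at 0.357 and 0.487 CPM. MYRIP changed by -2.39 in the knockout and by 2.03 with SOX10 in knockout cells (adjusted p = 7.51e-07 and 1.59e-06 in edgeR's test). With SOX10 in knockout cells RPSA had -0.09, FABP5 -0.22 and FABP4 -2.03. Beside CNP, ODAD4 had -0.02 with SOX10 in control cells (adjusted p = 0.943). With SOX10 in knockout cells TEKT3, beside PMP22, rose by 1.91, and NLGN3, beside GJB1, by 1.83. Both were low, at 0.166 and 0.220 CPM in control cells. On the other sides of PMP22 and GJB1, LINC02096 had -1.10 and ZMYM3 0.07.

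The protein-coding genes most like each member over the 18 libraries were named by the Pearson correlation of log2 CPM, as a description, since libraries of a group share their treatment. SNX18 (r = 0.995) and PLA2G4A (r = 0.994) came nearest to PMP2, and MYO1D (r = 0.994) and ESRP1 (r = 0.992) to MOBP. ESRP1 went from 0.156 to 2.76 CPM with SOX10 in control cells, and MYO1D from 14.7 to 36.9. SNX18 went from 31.6 to 51.8 CPM and PLA2G4A from 7.45 to 18.9, so the likeness is of pattern and not of size. CDC42EP3 (r = 0.996) and TSPAN13 (r = 0.995) were nearest to PMP22, PLOD3 (r = 0.995) and ENC1 (r = 0.994) to CNP, and SH3TC2 (r = 0.984) and NEBL (r = 0.981) to GJB1. SH3TC2 had 49.1 CPM in control cells, 23.1 and 16.9 with guides 1 and 2, and 55.1 and 58.2 with SOX10 added, and like GJB1 it was highest in guide 2 with SOX10.

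Markers of glia and of other cell types moved with the groups. Of 12 Schwann cell markers, SOX10 and ERBB3 among them, 8 or 9 had at least 1 CPM in each group. Their summed level was 1087 to 1119 CPM in control cells, 1451 to 1470 with SOX10, 178 to 273 in the knockouts and 749.8 to 907 in the knockouts with SOX10. In control cells SOX10 and ERBB3 made up 354 CPM each of this sum. As SOX10 was the overexpressed gene, part of the rise with it was set by the treatment. Of 12 oligodendrocyte markers, which include MOBP and MAG, 4 or 5 had at least 1 CPM, their sum ran from 49.98 to 264 CPM, and OPALIN was at 0 in all libraries. Summed over 7 fibroblast markers, levels were 7.92 to 15.0 CPM in the groups with the control guide and 36.5 to 56.0 in the knockout groups. The 6 epithelial markers ran from 141 to 177 CPM with the control guide and from 234 to 338 in the knockouts. The 8 neuronal markers had 57.5 to 91.8 CPM and the 6 astrocyte markers 11.9 to 22.7. The 6 leukocyte markers had 5.21 to 21.7 CPM, with 1 of them at 1 CPM or more in each group. The 4 endothelial markers had 1.89 to 35.2 CPM, highest in the knockouts with SOX10. With SOX10 in guides 1 and 2, KDR rose by 6.13 and 7.03 on the log2 scale and VWF by 2.41 and 2.65. PECAM1 went the other way, by -2.00 and -1.09, as did CDH5, by -1.42 and -0.99. The part of all these markers in the results above was not tested. In these bulk samples fewer cells of a type and less RNA per cell cannot be told apart.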

How the data were processed

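RNA-seq of 18 libraries was analysed from 1 table of raw read counts per gene that the authors deposited, with no normalization. HISAT2, HTSeq and genome build hg38 are named in the submitters' processing notes, without versions or a strand setting. Per the labels' protocols the kit was a stranded mRNA kit. Each column matched the title of 1 sample.

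In R 4.3.3, edgeR 4.0.16 kept 21060 genes by filterByExpr, scaled with TMM factors and fitted 6 group means to all libraries by robust quasi-likelihood (12 residual degrees of freedom). Tests were two-sided with Benjamini-Hochberg adjustment over the genes tested. CPM uses effective library sizes, and RPKM divides by the union of GENCODE 29 exons, which also gave gene coordinates. Symbols were matched for 58207 of 58721 identifiers. Count ratios have exact conditional binomial intervals. The fit was tested on simulated data.

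The members and the gene lists were chosen with earlier results of these data known, so no list is independent evidence. Counts over the lists of transcription factors, fatty acid binding proteins and connexins leave out SOX10, RBP4 and PANX1, a choice made after seeing the data. Members were all named, and up to 4 genes per list were named by lowest adjusted p in 3 contrasts, plus SOX10, TADA2B, EGR2 and ERBB3; some genes that this rule names are not reported here. For each of 5 members the 3 most correlated genes were determined. Alternatives were other scaling, DESeq2 1.42.0, filters, a replicate block, only the compared groups, each library left out, and the length of the longest transcript.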

Additional observations from a re-analysis of the deposited data

Results flagged for a closer look

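The change with SOX10 overexpression differed between knockout and control cells for 4 myelin genes by the interaction test of edgeR's model. On the log2 scale the change of GJB1 was larger in knockout cells by 2.74 (3.06 against 0.31), PMP2 by 2.73 (11.5 against 8.78), PMP22 by 0.49 (1.45 against 0.97) and CNP by 0.48 (0.97 against 0.49). These 4 differences passed under every alternative run. PMP2 was tested only because of its counts in SOX10 groups. Its difference rests on 3 and 9 counts in guides 1 and 2 without SOX10 and 18 in control cells. SOX10 RNA itself rose more in the knockouts, with an interaction of 1.80 ± 0.05 (adjusted p = 7.34e-25), so the size of its rise and the response to it cannot be told apart. For GJB1, PMP22 and CNP the level before SOX10 was lower in the knockouts than in control cells, and for PMP2 it was near 0 in both.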

How the results depend on the processing

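Across 11 contrasts the number of members that passed stayed within 1.5 times its main value in all 170 combinations of contrast and alternative setting. The main counts were 3 to 5, so the loss or gain of 1 member stays within that limit. Of 6 changed calls lost when 1 library was left out, 5 were PMP2 in the knockout or guide 1 and 1 was GJB1 with SOX10 in control cells, and CNP in knockout with SOX10 against control gained a call in 4 settings. All are given above. Reversed signs occurred only for MOBP and GJC3, in contrasts that had not passed, when 1 library was left out. Over all settings, MOBP ran from -0.65 to 2.62 in knockout against control and from -1.97 to 2.59 in guide 2 against control. It ran from -1.52 to 1.75 in the interaction and from -2.63 to 0.49 in guide 2 against guide 1. GJC3 ran from -0.38 to 0.65 in guide 2 against control, from -0.17 to 0.35 for SOX10 in knockout cells, from -0.49 to 0.091 for SOX10 in guide 1 and from -0.20 to 0.83 for SOX10 in guide 2. Each left-out library changes the few counts behind these genes. Same-numbered libraries of different groups showed little common deviation over all tested genes (correlations -0.03 to 0.07 over 45 pairs). Differently numbered libraries had -0.11 to 0.08 over 90 pairs. With 3 libraries per group this cannot exclude shared cultures or batches. With the replicate number as a block, 4 members passed in knockout against control and 5 for SOX10 in control cells, as without the replicate block. The length of the longest transcript moved RPKM of PMP22 in control cells from 78.6 to 136 and kept the order of members in the 3 groups compared. Depth limits MBP, MAG, GJC3 and the lower groups of PMP2 and MOBP.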

Other observations

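Genes of myelin lipid synthesis and of inherited neuropathy moved in both directions, where 58.1% of all genes passed in the knockout and 56.2% with SOX10 in knockout cells. Of 14 tested lipid genes, 4 were higher and 6 lower in the knockout, and 6 were higher and 6 lower with SOX10 in knockout cells. UGT8, which makes the galactolipid of myelin, averaged 44.6 CPM in control cells and 82.3 with SOX10, 24.1 and 24.9 in guides 1 and 2, and 61.6 and 49.3 with SOX10 added. The desaturases FADS1 and FADS2 changed by 0.47 and -0.65 in the knockout on the log2 scale. Of 12 genes of inherited neuropathy other than the members, 3 were higher and 7 lower in the knockout. FGD4 changed by -1.15 and LITAF by -0.43, and with SOX10 in knockout cells by 1.18 and 0.63, while GDAP1 rose by 0.56 in the knockout. In the family of PMP2, the retinoic acid carrier CRABP2 rose by 1.77 in the knockout and by 0.62 with SOX10 in knockout cells.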
